A study of Mus musculus with 2 samples.

Results

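Cones are the photoreceptors of daylight and colour vision. In these data they are 1476 of 30924 kept cells. Of these cones, 521 lay among 12529 kept cells of the wild-type (WT) library and 955 among 18395 of the ND6 mutant library. A cell was called a cone when 7 cone genes together took at least 0.5% of its UMIs (unique molecular identifiers, 1 per captured transcript), with at least 5 such UMIs and at least 3 of the 7 genes detected. The 7 genes were Arr3 (cone arrestin), Opn1sw (S-opsin), Opn1mw (M-opsin), Gnat2 (cone transducin alpha subunit), Pde6h and Pde6c (inhibitory and catalytic subunits of the cone phosphodiesterase) and Gngt2 (cone transducin gamma subunit). Their levels chose the cells, so they are given as a description.

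A cone carries its opsin in the membranes of an outer segment, where light acts through transducin and phosphodiesterase to close cyclic nucleotide-gated channels. Mouse cones make S-opsin, which absorbs short wavelengths, M-opsin, which absorbs middle wavelengths, or both, and the balance follows the position of the cell between ventral and dorsal retina. Cones depend on glycolysis and on a dense cluster of mitochondria in the inner segment.

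Both libraries came from dissociated whole retina of 7-month-old male C57BL/6J mice, 1 library per genotype. How many mice gave each library is not stated in the labels. The ND6 mice carry a point mutation in the mitochondrial (mtDNA) gene for the complex I subunit ND6, which replaces a proline with a leucine. The mutation is inherited through the mother and is present in every tissue, so cones and every other cell of the ND6 retina carry it. With 1 library per genotype no test between genotypes was possible, and the intervals given below are 95% intervals that cover counting error only.

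The sequences around the RefSeq transcript starts of the opsin genes and of Arr3 are shown because the division of the cones by opsin, which Arr3 followed, is the pattern among cones described in most detail below. Each is the window from 250 bases before to 50 bases after a RefSeq transcript start on GRCm38.p6, written from 5′ to 3′ on the strand of the gene. Capitals mark TAATC or its reverse complement GATTA, the core recognised by the photoreceptor homeodomain factors CRX and OTX2, searched on both strands. Of 32851 such mouse windows, 22% held at least 1 match, and of the 5 windows found for the 7 cone genes, 3 did. The Opn1sw window held 1 match, beginning 49 bases before the start. The Arr3 window held 3, beginning 116, 102 and 10 bases before it, and the Opn1mw window held none of these letters.
Opn1sw, chr6:29380464-29380763, minus strand: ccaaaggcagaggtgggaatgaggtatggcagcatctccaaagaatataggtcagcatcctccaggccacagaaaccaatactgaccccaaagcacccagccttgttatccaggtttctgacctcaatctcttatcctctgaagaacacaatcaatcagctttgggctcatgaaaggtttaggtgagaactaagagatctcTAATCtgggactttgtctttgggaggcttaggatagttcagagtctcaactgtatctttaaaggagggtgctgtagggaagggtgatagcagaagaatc
Opn1mw, chrX:74127216-74127515, plus strand: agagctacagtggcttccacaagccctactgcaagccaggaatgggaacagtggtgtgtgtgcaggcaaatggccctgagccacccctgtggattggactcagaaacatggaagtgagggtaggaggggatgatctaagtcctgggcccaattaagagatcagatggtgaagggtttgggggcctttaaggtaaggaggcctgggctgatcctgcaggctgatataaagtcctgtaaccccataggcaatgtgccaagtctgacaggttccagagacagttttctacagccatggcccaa
Arr3, chrX:100605247-100605546, plus strand: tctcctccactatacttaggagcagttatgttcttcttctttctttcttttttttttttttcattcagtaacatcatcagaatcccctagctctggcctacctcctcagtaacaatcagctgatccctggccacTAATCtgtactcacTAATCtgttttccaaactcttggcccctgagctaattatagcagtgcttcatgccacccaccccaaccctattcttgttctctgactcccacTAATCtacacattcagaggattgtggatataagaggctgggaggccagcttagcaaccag

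In the GENCODE M21 annotation, Opn1sw (ENSMUSG00000058831) lies at chr6:29376671-29388468 on the minus strand, and its last 440 bases overlap the end of Calu on the other strand. Ccdc136, on the plus strand at chr6:29396309-29426994, begins 7840 bases beyond the upstream end of this Opn1sw span. The RefSeq start used for the Opn1sw window lies inside the span, downstream of that end. Opn1mw (ENSMUSG00000031394) lies at chrX:74127464-74150760 and Arr3 (ENSMUSG00000060890) at chrX:100605497-100618493, both on the plus strand.

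Cones were 4.16% (95% interval 3.82 to 4.52) of kept WT cells and 5.19% (4.88 to 5.52) of kept ND6 cells, a log2 ratio of 0.32 (0.16 to 0.48). That ratio depended on which barcodes were kept. It was 0.60 without the limit of 20% on mtDNA-encoded UMIs and 0.14 (-0.07 to 0.35) when the cone genes had to reach 2% of UMIs. A difference in the number of cones and one in RNA per cone cannot be told apart from this share where a threshold on RNA decides membership. The share also depends on the other kept cells. Rods were 91.7% of kept cells in WT and 87.5% in ND6. Bipolar cells were 1.29% and 1.81%, so a higher share in ND6 was not particular to cones. No barcode was a cone in both libraries, although 59 kept barcodes were shared between them, 4 of them WT cones and 3 of them ND6 cones.

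The cones were deeply sampled. The median cone held 7189 UMIs from 2838 genes in WT and 5963 UMIs from 2566 genes in ND6, against 1778 and 1377 UMIs in rods. In total the cones gave 5631627 WT and 8635225 ND6 UMIs. All 7 cone genes were detected in 289 WT and 543 ND6 cones.

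The cones were not uniform in cone gene content. At the low end of the rule, 104 WT and 204 ND6 cones had cone genes at 0.5 to 1% of UMIs. These held a median of 19866 and 19334 UMIs, and they supplied 36.4% and 42.8% of all cone UMIs. Their median rod gene share, over 10 rod genes, was 7.22% and 7.16%. In the 304 WT and 491 ND6 cones at 2% or more, the median depth was 6389 and 4376 UMIs and the median rod gene share 2.88% and 2.90%. The number of cone gene UMIs per cell differed less, with medians of 143 and 128.5 at the low end and 233 and 168 at 2% or more. Just inside the threshold, 30 WT and 56 ND6 cells at 0.5 to 0.6% had a median rod gene share of 7.48% and 7.52%, and just outside it 46 and 72 cells at 0.4 to 0.5% had 7.54% and 7.4%. The threshold therefore cuts through a continuum, and whether barcodes at the low end held more than 1 cell was not tested. Results that turn on it are given below with the 417 WT and 751 ND6 cones at 1% or more beside them.

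**Figure D1:**
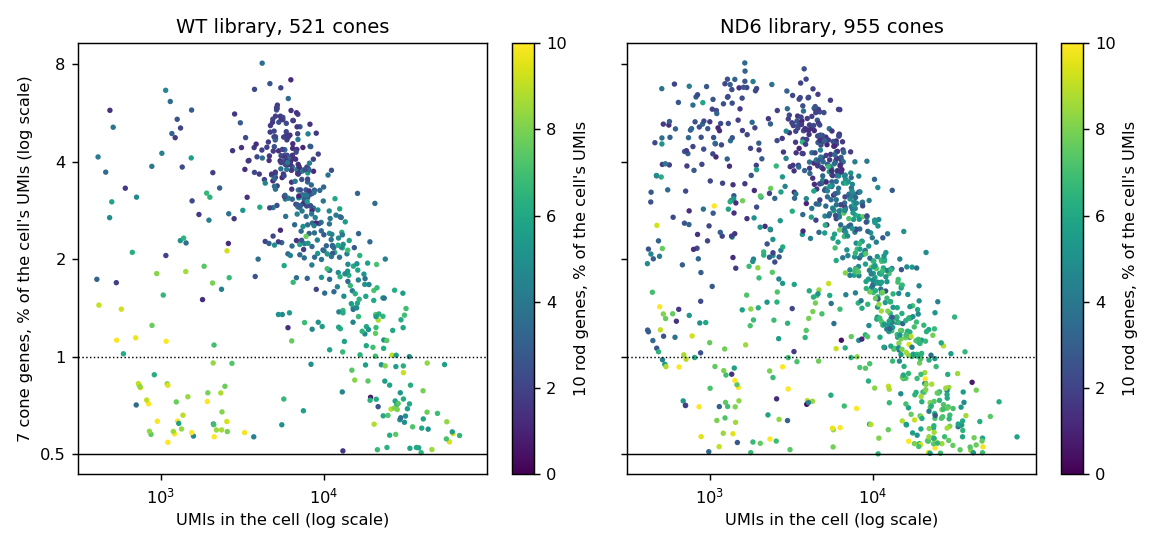
Each point is a cone, with its UMIs (log scale) on the horizontal axis, the share of its UMIs from the 7 cone genes (log scale) on the vertical axis and the share from 10 rod genes as colour, in the WT library (left) and the ND6 library (right). The solid line is the 0.5% limit of the rule and the dotted line 1%; the cells between them, 104 in WT and 204 in ND6, are mostly deep and rich in rod genes.

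Rod transcripts made up 5.14% of WT and 5.8% of ND6 cone UMIs. In rods they made up 7.83% and 7.81%, in bipolar cells chosen by their own markers 1.30% and 1.36%, and in barcodes of 10 to 100 UMIs, taken as free RNA, 5.68% and 6.06%. Rod genes are not read here as expressed by cones.

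Genes that the rule did not use also separated cones from rods. Genes compared between cones and rods needed at least 100 cone UMIs in each library, with no minimum in rods. A gene low in cones could thus drop out, so the counts higher and lower are not comparable. Of 6959 such genes, 250 (3.59%), the 7 rule genes among them, were at least 2-fold higher in cones in both libraries. At least 2-fold lower in both were 0 (0%). These are descriptions, since the cells were chosen by their transcripts. All 4 of the other cone-enriched genes listed passed 2-fold. Kcne2, an accessory subunit of potassium channels, stood at 348 CPM (UMIs of the gene in 1000000 UMIs of the cells) in WT cones and 10.5 in WT rods, and at 216 and 9.39 in ND6. In bipolar cells it stood at 117 and 35.5 in WT and ND6. Ccdc136 stood at 438 and 19.7 in WT and at 525 and 37.1 in ND6, but at 452 and 416 in bipolar cells of WT and ND6, so its level did not set cones apart from those cells. Among the 16 cone cascade genes outside the rule, 4 passed: Cnga3 and Cngb3, which form the cone channel, Gnb3, the cone transducin beta subunit, and Slc24a2, the cone sodium-calcium exchanger. Gnb3 had log2 ratios of 3.66 and 3.19 in WT and ND6, and Slc24a2 of 4.54 and 3.57. Gnb3 too was high in bipolar cells, at 1063 and 1548 CPM in WT and ND6 beside 1504 and 1537 in cones. Cnga3 was at 0 in the bipolar cells of both libraries, and Cngb3 stood there at 44.0 and 58.5 CPM beside 247 and 187 in cones.

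The 15 genes with the highest cone over rod ratios outside the 7 rule genes were Agr2, Klhl4, Kcne2, Gpat3, Fabp7, Clca1, Fzd10, Cngb3, Cdk6, Adrb1, Cckbr, Socs3, Gm42697, Arhgdib and Sall3. The leading gene was Agr2, a protein disulfide isomerase of the secretory pathway. It stood at 45.6 CPM in WT cones against 0.978 in WT rods, and at 40.9 against 1.40 in ND6, log2 ratios of 5.54 (5.08 to 6.03) and 4.87 (4.50 to 5.26). Several of the 15 encode receptors or signalling proteins. Adrb1, the beta-1 adrenergic receptor, had ratios of 4.59 and 4.17, Cckbr, a cholecystokinin receptor, 4.41 and 4.12, and Fzd10, a Wnt receptor, 4.74 and 4.26. In bipolar cells of WT and ND6, Adrb1 stood at 163 and 111 CPM, beside 265 and 380 in cones. Cckbr was at 0 in the bipolar cells of both libraries and Fzd10 at 0 and 1.87. Fabp7 and Gpat3, which bind fatty acids and start glycerolipid synthesis, had ratios of 4.71 and 4.37 and of 4.87 and 4.43.

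Of 3 creatine genes, 2 were at least 2-fold higher in cones than in rods, and both were higher still in bipolar cells. Ckb, the cytosolic brain creatine kinase that passes high-energy phosphate from creatine phosphate to ADP, stood at 2280 CPM in WT cones and 836 in WT rods, and at 2188 and 1009 in ND6, beside 3385 and 3610 in bipolar cells of WT and ND6. The creatine transporter Slc6a8 stood at 29.1 and 5.89 in WT and at 44.1 and 9.88 in ND6, beside 75.7 and 73.4 in bipolar cells. The mitochondrial creatine kinase Ckmt1 was below 2-fold, with log2 ratios of 0.77 and 0.74. At the synapse, Cplx3, a complexin of ribbon terminals, had ratios of 2.97 and 2.09 and Elfn2, an adhesion protein, 3.66 and 2.41, and they were the 2 of 21 synapse genes past 2-fold. Both were higher in bipolar cells than in cones, Cplx3 at 1104 and 1141 CPM in WT and ND6 beside 390 and 361, and Elfn2 at 51.9 and 99.0 in bipolar cells. Outer segment genes, which rods and cones share, had 0 of 15 past 2-fold, with median log2 ratios of -0.20 and -0.02. Over all 6959 genes compared, 3.59% were at least 2-fold higher in cones in both libraries, with medians of 0.08 and 0.10. With so low a share over all genes, 0 of 15 is not a result about outer segment genes.

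The opsins divided the cones. S-opsin took 75.6% (75.1 to 76.0) of opsin UMIs in WT cones, 29307 of Opn1sw beside 9475 of Opn1mw, and 71.1% (70.8 to 71.5) in ND6 cones, 37680 beside 15285. The log2 ratio of the shares, ND6 over WT, was -0.087 (-0.109 to -0.065), -0.055 with cones weighted equally and -0.030 (-0.125 to 0.066) with each cone thinned to 400 UMIs, where the interval spanned 0. UMIs of the 2 genes come from 3′ ends and are not scaled by length, so the share compares transcripts captured. Both opsins were detected in 325 WT and 611 ND6 cones, S-opsin alone in 71 and 134, M-opsin alone in 122 and 206 and neither in 3 and 4. With each cone thinned to 400 UMIs, both were detected in 25.1% of WT and 26.0% of ND6 cones.

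Among the 482 WT and 877 ND6 cones with at least 5 opsin UMIs, the S-opsin share was bimodal. S-dominant cones, at 90% S-opsin or more, were 34.4% (30.2 to 38.9) in WT and 27.7% (24.8 to 30.8) in ND6. M-dominant cones, at 10% or less, were 27.0% (23.1 to 31.2) and 27.3% (24.3 to 30.3). Mixed cones were 38.6% (34.2 to 43.1) and 45.0% (41.7 to 48.4), and most of them lay above 50% S-opsin. The M-dominant intervals overlapped nearly whole, and the S-dominant intervals overlapped at their edges. Rods carried opsin UMIs too, 116 and 157 CPM of Opn1sw in WT and ND6 rods, against 24.1 and 36.1 in M-dominant cones. The class rule held Opn1sw low in M-dominant cones, so these levels are a description. The difference between libraries in the mixed class has no replicate check.

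**Figure D2:**
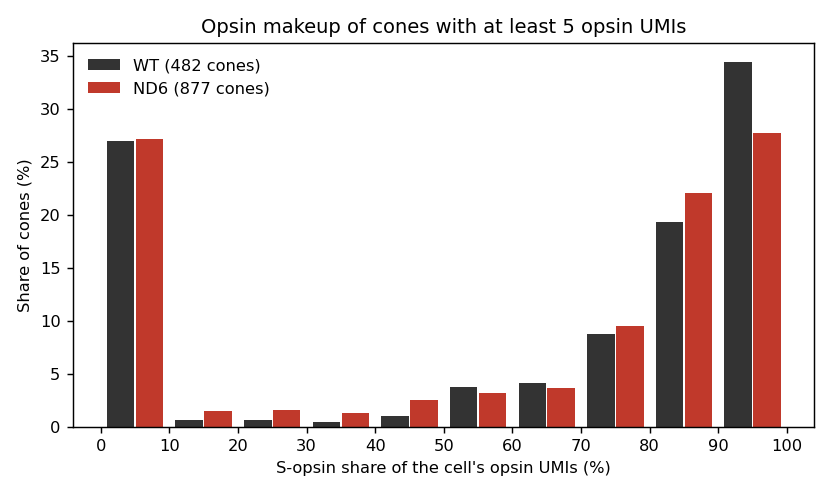
Bars give the share of cones (%) by S-opsin share of opsin UMIs, in steps of 10 percentage points, for 482 WT and 877 ND6 cones with at least 5 opsin UMIs. Cones gathered below 10% and above 70%, and few lay between; the last bar is 34.4% in WT and 27.7% in ND6.

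Genes other than the opsins followed the division in both libraries. Of 9328 genes compared, 33 (0.354%) were at least 2-fold higher in S-dominant cones in both libraries and 51 (0.547%) at least 2-fold higher in M-dominant cones in both, each count including the opsin that defined the class. Among the cones at 1% or more, 26 of the 33 and 39 of the 51 stayed past 2-fold in both. The 2 libraries share no cells, so each is a repeat of the other for these genes, although genotype differs with the library.

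Ccdc136, the neighbour of Opn1sw, was the most counted of the 10 genes named on the S-dominant side. It stood at 694 CPM in S-dominant and 54.6 in M-dominant WT cones, and at 767 and 76.2 in ND6, log2 ratios of 3.67 (3.33 to 4.02) and 3.33 (3.11 to 3.56). Vax2, a homeobox factor of the ventral retina, stood at 65.4 and 10.6 in WT and at 102 and 13.5 in ND6, ratios of 2.62 (1.84 to 3.50) and 2.92 (2.37 to 3.51). Socs3, a suppressor of cytokine signalling, had ratios of 2.53 and 3.97. The homeobox gene En2 was counted 46 times in S-dominant WT cones and not in M-dominant ones, and 34 times against once in ND6. Syndig1l had 151 against 4 UMIs in WT and 227 against 17 in ND6. Eya1, Ebf2, Slc29a4, Wscd2 and Lrrc4 completed the 10 named genes, each with 18 to 41 UMIs in S-dominant cones of a library.

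On the M-dominant side, Nr2f2 (COUP-TFII), a nuclear receptor, stood at 9.58 CPM in S-dominant and 69.5 in M-dominant WT cones, and at 8.42 and 63.6 in ND6, ratios of -2.86 (-3.70 to -2.11) and -2.92 (-3.67 to -2.24). The long noncoding gene Gm44532 had ratios of -3.60 and -3.43 and Mdga2, an adhesion protein of synapses, -4.82 and -3.43. D430019H16Rik, Cap2, Gm44812, Kif4, Zfhx4, Tmem56 and Fmn2 were the others named. Zfhx4, a zinc-finger homeobox factor, had ratios of -2.29 and -2.05.

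Of the rule genes other than the opsins, Arr3 differed most between the classes. It stood at 1369 CPM in S-dominant and 2820 in M-dominant WT cones, and at 1020 and 2134 in ND6, ratios of -1.04 (-1.12 to -0.97) and -1.06 (-1.14 to -0.99). Its promoter window is printed above. Thrb, the thyroid hormone receptor that M-opsin expression requires, was lower in S-dominant cones, with ratios of -0.65 (-0.82 to -0.47) and -0.58 (-0.72 to -0.43). Rxrg, its partner that holds S-opsin down in other cones, was higher, with 0.67 (0.05 to 1.31) and 0.65 (0.19 to 1.11). Gngt2, Gnat2, Pde6c and Pde6h lay between -0.39 and -0.05 in both libraries. Arr3 and these 4 genes chose the cells by their sum with the opsins, so their ratios between classes are a description. S-dominant cones held a median of 106.5 opsin UMIs in WT and 78 in ND6, and M-dominant cones 39 and 34. A cone with fewer opsin UMIs needed more from the other rule genes, and the part of this in the ratios was not tested.

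**Figure D3:**
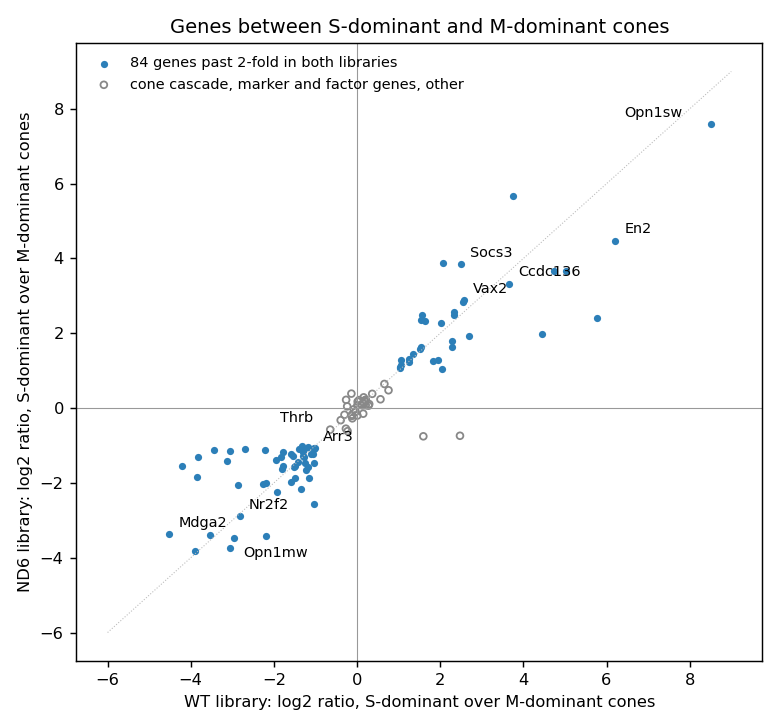
Each point is a gene, placed by its log2 ratio of S-dominant over M-dominant cones in the WT library (horizontal axis) and the ND6 library (vertical axis), with 0.5 UMIs added to each sum. The 84 filled points passed 2-fold in both libraries and include both opsins; open points are listed cone genes that did not, and the dotted line marks equal ratios.

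Between genotypes, most genes differed little in cones. Over 10372 genes with at least 50 cone UMIs the median log2 ratio of ND6 over WT was 0.00, with 5256 (50.7%) above 0 and 5116 (49.3%) below. At least 2-fold higher in ND6 cones were 234 genes (2.26%), and at least 2-fold lower were 73 (0.704%). These are counts past a size, with no test, and they moved with the depth of the genes: 41 and 29 genes with at least 200 UMIs per gene, 30 and 16 with each cone thinned to 400 UMIs, and 1719 and 1465 over all genes with at least 1 UMI.

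Immediate early genes, which code for transcription factors induced within minutes of a stimulus, differed most, leaving aside markers of other cell types. All 11 with enough UMIs were lower in ND6 cones and 7 were at least 2-fold lower, with a median log2 ratio of -1.66. Fos stood at 818 CPM in WT cones and 138 in ND6 cones, a ratio of -2.57 (-2.67 to -2.48). Egr1 stood at 786 and 96.5, a ratio of -3.03 (-3.14 to -2.92), and Fosb at 153 and 18.9, a ratio of -3.02 (-3.27 to -2.78). Together the 13 listed genes took 0.250% of WT and 0.0574% of ND6 cone UMIs. In the cones at 1% or more the median was -1.66 as well, and Egr1 lay between -3.31 and -2.92 in S-dominant, mixed and M-dominant cones taken apart.

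The same genes were lower in ND6 rods, with a median of -0.86, and in free RNA, where their sum was 0.136% in WT and 0.0568% in ND6. Nr4a1, an orphan nuclear receptor, had a ratio of -1.68 (-1.98 to -1.39) in cones and -0.31 in rods, and Jund -0.84 and -0.29. Atf3 had -1.51 in cones and -1.55 in rods. In bipolar cells Nr4a1 had -1.58 (-2.54 to -0.66), near its ratio in cones. Egr1, Fos and Fosb had -1.74, -1.52 and -2.51 there, and the intervals of Junb, Ier2 and Atf3 spanned 0. The handling of the tissue for each library cannot be told apart from genotype.

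Heat shock genes were lower as well, 7 of 7 with a median of -0.98 in cones and -1.06 in rods. Hspa8, the constitutive HSC70 chaperone, stood at 1331 CPM in WT and 674 in ND6 cones, and Hsp90ab1 at 758 and 321. The inducible Hspa1b stood at 60.7 and 15.05, a ratio of -2.01 (-2.32 to -1.72). Ahsa2, related to an activator of the HSP90 ATPase, was among the 12 genes with the lowest ratios at -1.72.

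All 13 mtDNA-encoded messenger genes were lower in ND6 cones, with a median of -0.57. Together they took 7.86% of cone UMIs in WT and 6.01% in ND6, a log2 ratio of -0.39 that counting error leaves between -0.39 and -0.38. Rods had 8.33% and 7.25%, a ratio of -0.20, and free RNA 18.0% and 8.72%. Bipolar cells had 9.15% in WT and 6.47% in ND6, so the lower share was not particular to cones. mt-Nd6, the gene that carries the mutation, was counted 234 times in WT and 192 times in ND6 cones, 41.5 and 22.2 CPM, a ratio of -0.90 (-1.19 to -0.62). UMI counts do not show the mutated base. The 2 genes past 2-fold were mt-Atp8, an ATP synthase subunit, at -1.57 (-1.70 to -1.43), and mt-Nd4l, a complex I subunit, at -1.25 (-1.33 to -1.17). The smallest difference was that of mt-Nd1, at -0.21 (-0.23 to -0.18).

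The mtDNA share differed among cones of 1 library too. It was 10.4% of UMIs in WT and 7.57% in ND6 cones with cone genes at 2% or more, and 5.61% and 5.07% in those at 0.5 to 1%. The ND6 over WT ratio was -0.58 in S-dominant cones, -0.29 in mixed cones and -0.33 in M-dominant cones. Sorted by Malat1, a nuclear noncoding RNA, it was -0.15 in the lower, -0.44 in the middle and -0.55 in the upper tertile of cones. The lower tertile held 24.0% of WT and 38.4% of ND6 cones. The part of these shifts in the result was not tested.

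**Figure D4:**
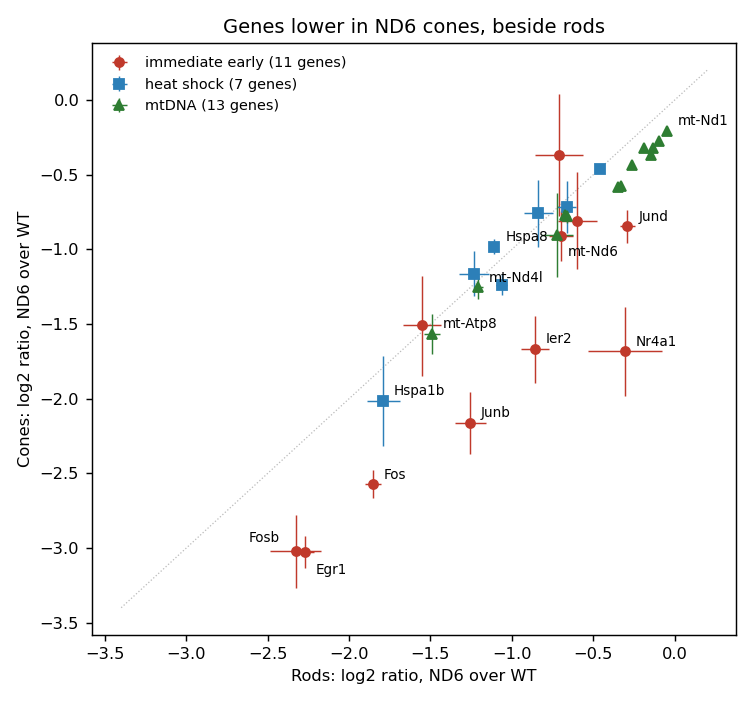
Log2 ratios of ND6 over WT for 11 immediate early, 7 heat shock and 13 mtDNA-encoded genes in rods (horizontal axis) and cones (vertical axis), with 95% counting intervals. The dotted line marks equal ratios; Egr1, Fosb, Fos, Junb, Ier2, Nr4a1 and Jund lie below it, and the heat shock genes lie near it.

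Nuclear-encoded genes of oxidative phosphorylation (OXPHOS) showed small ratios. Of 127 subunit and assembly genes, 81 were above 0 and 46 below, with a median of 0.08 in cones and 0.16 in rods, and 1 was at least 2-fold higher. That gene was Cox7a1, a complex IV subunit best known from muscle, with 31 WT and 101 ND6 UMIs and a ratio of 1.09 (0.49 to 1.72). The lowest were Atpsckmt, at -0.97 (-1.44 to -0.51), and Sdhd, a membrane anchor of complex II, at -0.97 (-1.20 to -0.75). By complex the medians were 0.09 for complex I, -0.04 for II, 0.07 for III, 0.05 for IV and 0.09 for V.

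Glycolysis and lactate genes leaned higher, 17 of 22 above 0, with a median of 0.32 in cones and 0.33 in rods. Tpi1, triosephosphate isomerase, stood at 240 CPM in WT and 362 in ND6 cones, a ratio of 0.59 (0.50 to 0.69), and Pkm, pyruvate kinase, at 1640 and 2212, a ratio of 0.43 (0.40 to 0.47). Nxnl1, which encodes rod-derived cone viability factor, had 0.42 (0.35 to 0.50). Ldha, lactate dehydrogenase A, went the other way at -0.16 (-0.21 to -0.11). The lactate exporter gene Slc16a3 had 1.37 (0.81 to 1.97) from 33 and 131 UMIs. Antioxidant genes had 8 of 12 above 0, with a median of 0.21. Txn1, thioredoxin, had 0.46 (0.26 to 0.67) and Gpx4, which reduces lipid peroxides, 0.20 (0.16 to 0.24). Cytosolic ribosomal protein genes had 68 of 81 above 0, with a median of 0.18.

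Genes of the cone light response outside the rule showed no common direction, with 6 of 16 above 0 and a median of -0.04. The channel genes Cnga3 and Cngb3 were both lower in ND6, at -0.41 (-0.64 to -0.18) and -0.40 (-0.51 to -0.30). Gucy2e, a guanylate cyclase that restores cyclic GMP, had 0.38 (0.30 to 0.45). Guca1b, a calcium sensor of that cyclase, had -0.23 (-0.27 to -0.19). The rule genes, given as a description, lay between Gngt2 at -0.42 and Pde6c at 0.26.

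Outer segment genes were above 0 in 9 of 15, with a median of 0.07. Fscn2, an actin-bundling protein, was highest at 0.65 (0.54 to 0.76). Abca4, which clears retinaldehyde from disc membranes, stood at 505 and 728 CPM, a ratio of 0.53 (0.47 to 0.59), and Rom1, a disc rim protein, had 0.43 (0.40 to 0.45). Aipl1, a phosphodiesterase chaperone, was lowest at -0.29 (-0.34 to -0.25). Synapse genes were above 0 in 14 of 22, with a median of 0.07. Slc17a7, the vesicular glutamate transporter, had 0.42 (0.38 to 0.45) and Lrit1, a synaptic organiser, -0.83 (-0.94 to -0.72), close to its -0.97 in rods.

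Among 13 photoreceptor transcription factors with enough UMIs, 9 were above 0 and 1 passed 2-fold. That was Rorb, a nuclear receptor of photoreceptor development, at 266 and 549 CPM, a ratio of 1.04 (0.96 to 1.13) in cones and 1.16 in rods. Neurod1, which maintains photoreceptors, stood at 2059 and 1522, a ratio of -0.44 (-0.47 to -0.40). Crx had 0.19 (0.14 to 0.24), Otx2 -0.22 (-0.30 to -0.13) and Thrb 0.07 (-0.01 to 0.15). Retinoid handling genes had 3 of 8 above 0, 1 of them at least 2-fold higher, with a median of -0.11. Their summed level was higher in ND6, with a ratio of 0.10 (0.07 to 0.12). In the cones at 1% or more, 4 of 6 were above 0 and the median was 0.12. Rbp3, the retinoid carrier between photoreceptors and pigment epithelium, stood at 2765 and 3121, a ratio of 0.17 (0.15 to 0.20), and Rdh12, a retinol dehydrogenase, at 610 and 515, a ratio of -0.24 (-0.31 to -0.18).

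**Figure D5:**
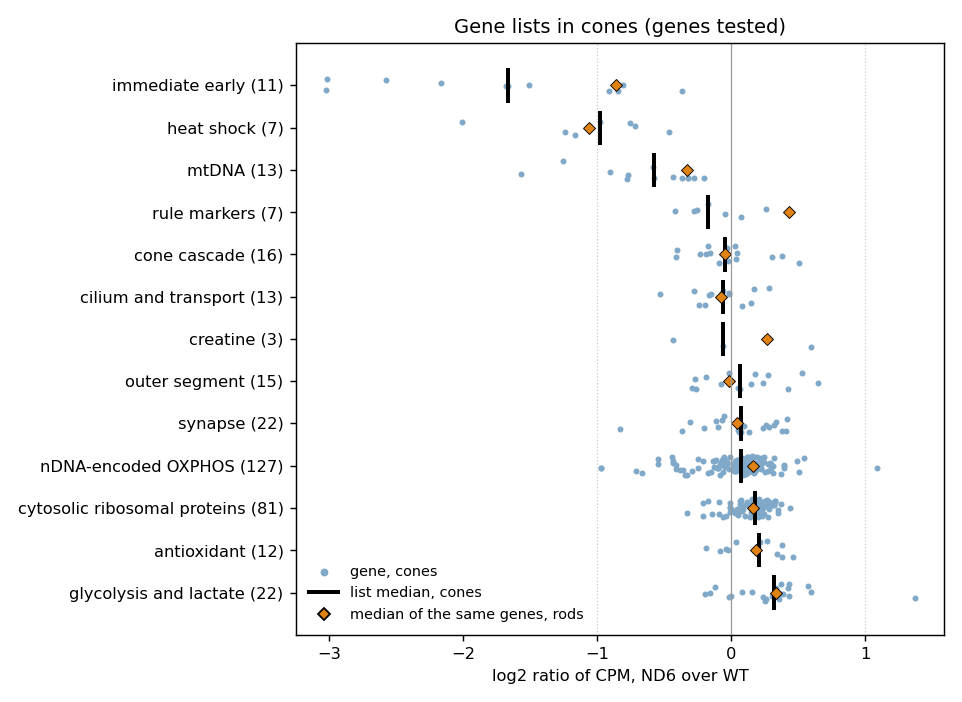
Each point is a gene of a list, placed by its log2 ratio of ND6 over WT in cones; bars are list medians in cones, diamonds the median of the same genes in rods, and the number of genes with at least 50 cone UMIs stands in parentheses. Immediate early, heat shock and mtDNA-encoded genes lie wholly below 0 in cones.

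The 12 genes with the highest ND6 over WT ratios in cones, among those with at least 200 UMIs, were Snhg11, Meg3, Cadps, Col4a3, Trpm1, Eno1b, D330050I16Rik, Rpl9-ps6, Syt11, Gpr162, Gm3839 and Trnp1. Col4a3, a chain of basement membrane collagen, stood at 25.6 CPM in WT and 95.1 in ND6 cones, a ratio of 1.89 (1.64 to 2.16) beside 1.32 in rods. Eno1b, an enolase copy near-identical to Eno1, stood at 35.3 and 108, a ratio of 1.62, and its reads may be split with Eno1. The same limit holds for the ribosomal pseudogene Rpl9-ps6 at 1.57. Gpr162, an orphan receptor, had 1.5 (1.06 to 1.96).

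Several of the 12 had much of their count in free RNA or in 1 cell. Snhg11, a noncoding RNA of inner retinal neurons, stood at 5.15 and 37.4 CPM in cones and at 17.7 and 398 in free RNA, and 1 cell held 41.4% of its 29 WT UMIs. Meg3, an imprinted noncoding RNA, stood at 15.4 and 77.5 in cones and at 39.8 and 1020 in free RNA. Trpm1, the channel of ON bipolar cells, had 50% of its WT and 31.6% of its ND6 UMIs in 1 cone, and its ratio of 1.81 was 0.50 in the cones at 1% or more. Cadps, which primes secretory vesicles, had 22.8% of its ND6 UMIs in 1 cone. Trnp1 had 21.8% and 25.4% of its UMIs in 1 cone, and its ratio of 1.41 was 0.68 there. Bipolar markers were above 0 in 6 of 7, with summed levels of 0.0181% in WT and 0.0303% in ND6 cones and of 0.0411% and 0.113% in free RNA, and 2 cones of each library met the bipolar rule. In cones with rule genes at 1% or more of UMIs, 4 of 6 bipolar markers were above 0 and 2 below, with a median log2 ratio of 0.38 against 1.13 over all cones. Their part in these ratios was not tested.

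The 12 lowest were Egr1, Fosb, Fos, Junb, Hspa1b, Rpe65, Ahsa2, Nr4a1, Ier2, mt-Atp8, Atf3 and AY036118. AY036118, a noncoding transcript, stood at 224 and 82.0 CPM, a ratio of -1.45 (-1.58 to -1.31). Rpe65, the visual cycle isomerase of pigment epithelium, had a ratio of -1.76 over all cones, but 1 WT cone held 87.4% of its 207 WT UMIs. In the cones at 1% or more its ratio turned to 1.07. Pigment epithelium markers were below 0 in 4 of 4, summing to 0.0361% in WT and 0.0208% in ND6 cones, and 3 WT and 15 ND6 cones met a rule on those markers. Microglia markers were below 0 in 3 of 3, summing to 0.00646% and 0.000324%, and 1 WT cone held 76.9% of the 117 WT UMIs of C1qb, a complement gene of microglia.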

How the data were processed

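The deposited count matrices hold UMI counts per gene and barcode that the authors made with Cell Ranger 3.0.2 against mm10 from Chromium 3′ libraries, unfiltered. The deposited gene and barcode lists carry no scores. Barcodes were kept from 401 UMIs and 201 detected genes upwards, with no more than 20% of their UMIs from mtDNA-encoded genes, the limits the study states. No doublet caller was run. The members and gene lists were chosen with earlier results of these data known.

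UMIs were summed over cones (or rods, with 10 rod genes at 2% of UMIs or more) of each library and divided by the total, in counts per 1000000 (CPM). Log2 ratios carry exact conditional 95% intervals, and shares exact Clopper-Pearson intervals. Genes needed at least 50 UMIs over both libraries' cones, and 0.5 UMIs were added for counts past 2-fold and list medians. The interval was tested on simulated counts drawn independently for each gene. These lacked the clustering of UMIs in single cells, so the test covers counting error only. The named genes were those of the lists, the 12 highest and 12 lowest ratios with at least 200 UMIs whose interval excluded 0 with the same sign when cones weighed equally, the 15 highest over rods with at least 100 UMIs, and up to 10 in each direction between opsin classes with at least 20 UMIs. Alternatives changed the mtDNA limit, the cone threshold, depth, weighting, thinning, rod gene and Malat1 content, scaling and gene filter. The analysis used Python 3.11.15, NumPy 2.4.6 and SciPy 1.17.1. The libraries held 77958836 WT and 80358255 ND6 UMIs in all barcodes. Results for 2 genes are not reported here.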

Additional observations from a re-analysis of the deposited data

Results flagged for a closer look

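Barcodes that met the cone gene rule but lay above the limit of 20% mtDNA-encoded UMIs were not used in any comparison above. There were 202 of them in the WT library and 96 in the ND6 library, with a median of 1036 and 948 UMIs. The mtDNA-encoded share of their UMIs was 32.1% and 27.5%, and the 7 cone genes took 2.31% and 1.99%. Counted with the kept cones, barcodes above the limit were 27.9% of WT and 9.13% of ND6 barcodes meeting the rule.

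Some gene lists had a summed level that was higher in ND6 in one photoreceptor type and lower in the other, with both counting intervals excluding 0, and the difference between the types was not tested. The 7 cone genes of the rule had a log2 ratio of ND6 over WT of -0.19 in cones and 0.41 in rods. Their levels chose the cones, and rods were taken from cells that were not cones, so both values are a description. The other cone-enriched genes had -0.11 in cones and 0.64 in rods. The cone cascade genes had 0.021 in cones and -0.084 in rods, and the outer segment genes 0.11 and -0.03. The rod genes had 0.17 in cones and -0.003 in rods, which they chose. The creatine genes had -0.088 and 0.18, and the photoreceptor stress genes -0.33 and 0.28. Markers of Müller glia had -0.21 in cones and 0.81 in rods, and pigment epithelium markers -0.80 and 0.21. In the cones at 1% or more, the median over the photoreceptor stress genes was 0.15, over the Müller markers 0.53 and over the pigment epithelium markers 1.11, against -0.20, -0.59 and -0.65 over all cones.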

How the results depend on the processing

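Of 143 alternative values, 113 stayed within the counting interval (for lists, the order-statistic interval of the median; for gene counts, within 1.5 times) and 30 did not; the causes were not tested. Values are log2 ratios of ND6 over WT unless called genes. Without the mtDNA limit, the cone share moved to 0.60, the mtDNA share to -0.54 and the rod gene share to 0.19. With cone genes at 1% or more, the mtDNA share was -0.45 and the rod gene share 0.19. At 2% or more (chosen after seeing the data), the cone share was 0.14, the mtDNA share -0.45, the S-opsin share -0.064, the nuclear OXPHOS median 0.11 and the genes at least 2-fold higher 96. With cones weighted equally, the mtDNA share was -0.38, the rod gene share 0.12 and the S-opsin share -0.055 (-0.087 as reported), with 366 genes higher and 135 lower. Thinned to 400 UMIs, these were -0.40, 0.12 and -0.030, the cone cascade median was 0.094, and 30 genes were higher and 16 lower. Outside the upper tertile of rod gene share, the mtDNA share was -0.365 and the rod gene share 0.073. Outside the upper tertile of Malat1, these were -0.33 and 0.14, with 152 genes higher. With at least 200 UMIs per gene, 41 genes were higher and 29 lower; with no filter, 1719 and 1465. The immediate early median stayed between -2.03 and -1.54 and the glycolysis median between 0.22 and 0.34 under every alternative run. No paired analysis was possible because each genotype has 1 library. With 1 library per genotype, differences between mice, dissections and library preparations cannot be told apart from genotype.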
